A study of Mus musculus with 6 samples.

Results

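The comparison set the 2 RNA libraries of clone 2, a mouse embryonic stem (ES) cell clone lacking HP1 alpha and HP1 beta, against the 2 libraries of the control clone. These are 4 of the 6 libraries of the series, and they were chosen by their labels alone. The control clone is titled Hp1α/β F/F, that is, it carries floxed alleles of both genes, and its genotype label reads WT. Clone 2 (DKO clone 2) has the genotype label Hp1alpha and Hp1beta double knockout, and the other deleted clone, clone 1 (DKO clone 1, 2 libraries), is used below only to see where clone 2 differs from it. The medium of all cells was DMEM and knockout serum replacement to which leukaemia inhibitory factor (LIF) was added, along with 3 µM CHIR99021 (an inhibitor of GSK3) and 0.8 µM PD184352 (an inhibitor of MEK). With 1 control clone, the effect of the genotype and that of the clone cannot be told apart. Nothing in the labels says that the paired libraries are separate cultures, so the p-values measure only the spread between libraries, which may be technical.

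HP1 proteins read a mark of silent chromatin: their chromodomain binds histone H3 methylated at lysine 9, and their chromoshadow domain lets them pair and recruit other proteins. Mammals have an alpha, a beta and a gamma form, encoded by Cbx5, Cbx1 and Cbx3. Heterochromatin marked in this way covers repeats near centromeres, transposon copies and clusters of repeated genes. Mouse ES cells kept with both inhibitors hold the naive pluripotent state, and a small and changing share of them passes through a state in which genes of the 2-cell embryo, such as Zscan4, are transcribed.

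The 6 libraries held between 24628872 and 34641560 counted reads, the 2 of clone 2 being the smallest at 24628872 and 26772203 against 34641560 and 32327537 in the control. After the filter on low counts, 14771 genes were tested. The 10 markers of ES cells summed to 4840 and 5058 CPM (read counts scaled to the size of the library) in the control and to 5148 and 4860 in clone 2, so the cell type on the label was matched by its markers. Markers of fibroblasts or feeder cells summed to 9.61 and 11.4 CPM in the control and 7.22 and 5.25 in clone 2, or without Acta2 to 4.48 and 4.46 against 6.34 and 4.24, and those of primitive endoderm to 4.69 and 5.30 against 4.78 and 3.67. Trophectoderm markers summed to 8.21 and 9.88 against 22.7 and 19.8, a sum that Eomes dominates. Neuroectoderm markers summed to 12.5 and 14.3 against 7.43 and 5.51, a sum that Sox1 dominates.

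Clone 2 had lost most of the RNA of both targeted genes. Cbx5 (HP1 alpha, Entrez 12419, GRCm38 chromosome 15, 103191546 to 103239904) was at 813 and 809 CPM in the control libraries and 191 and 200 CPM in clone 2. Cbx1 (HP1 beta, Entrez 12412, chromosome 11, 96788680 to 96808982) was at 227 and 223 CPM in the control and 44.9 and 44.5 CPM in clone 2. The groups lay far apart for both genes. The log2 changes were -2.05 (SE 0.069) and -2.33 (SE 0.077), each with an adjusted p of 1.39e-09 in edgeR's quasi-likelihood test with Benjamini-Hochberg adjustment over all tested genes, which is the test behind every adjusted p below. Which exons were floxed is not given in the sources used here, so the reads that were left may come from exons outside the deleted part. Cbx3 (HP1 gamma), on chromosome 6, was at 321 and 344 CPM in the control and 490 and 450 CPM in clone 2, and its log2 change was 0.50 (SE 0.070, adjusted p = 0.000327). Set against the median of chromosome 6, its change was 0.00087 (adjusted p = 0.996).

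Across the genome 1165 genes rose in clone 2 (7.89% of those tested) and 1046 fell (7.08%). Chromosome 6 held 35.1% of the genes that rose, although it carries 4.8% of the tested genes, and chromosome 14 held 7.55% of those that fell against 3.43% of the tested genes. Without clone 2 replicate 1 or 2 there were 682 and 656 rises and 526 and 467 falls, and without control replicate 1 or 2 there were 780 and 784 rises and 693 and 596 falls. Rises made up 52.7% of all calls and 43.7% of the calls outside chromosomes 6 and 14. For each chromosome the shift is the median log2 change of its tested genes less the median of the genes on all chromosomes, which was itself -0.00091. The shift of chromosome 6 was 0.51, with 0.48 and 0.47 in the clone 2 libraries taken one at a time. Chromosome 14 was shifted by -0.14, with -0.12 in each of both libraries. On 17 of the other chromosomes the shift lay between -0.038 and 0.057, and the control libraries lay within 0.011 of 0 on every chromosome but Y. No test over 2 against 2 libraries can give an exact permutation p below 0.333 for such a shift, so these are descriptions.

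**Figure D1:**
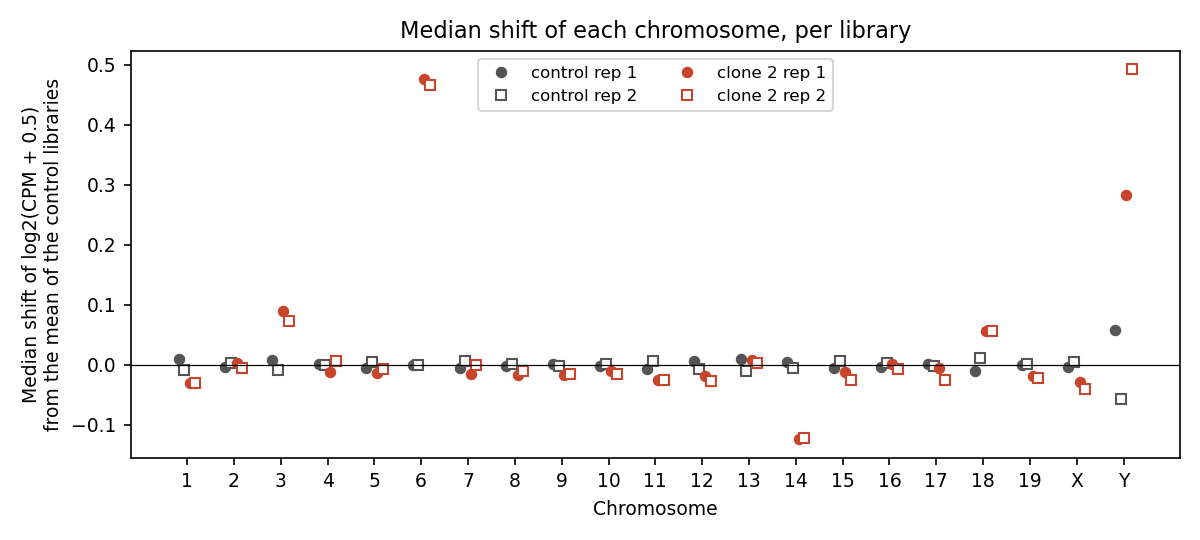
Median shift of log2(CPM + 0.5) on each chromosome against the control mean, for each control library (grey) and each clone 2 library (red). Both clone 2 libraries stand high on chromosomes 6 and Y and low on chromosome 14, and the control libraries stay near 0.

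Chromosome 6 was raised as a block from end to end. Of its 709 tested genes, 409 rose (57.7%) and 14 fell (1.97%), and 87% had a change above 0. The quartiles of the change were 0.27 and 0.69 on the log2 scale. All 15 bins of 10 Mb had a median above 0, between 0.30 and 0.67, so no bin stood at the level of the control. The shift equals 1.43-fold. For scale, a ratio of 3 to 2 is a log2 of 0.585, and the copy number of the chromosome was not tested. Clone 1 had a shift of 0.44 on the same chromosome. The share of genes called followed the level: in the lowest of 4 equal groups by expression 9.55% were called and the median shift was 0.33, against 92.7% and 0.52 in the highest. Leaving out 1 library kept the shift between 0.50 and 0.52, while the 14 falls became 7 without control replicate 2 and 8 without either clone 2 replicate.

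Set against their own chromosome's median, 57 genes of chromosome 6 lay higher and 59 lower. All of these 57 were among the 409, and all 14 genes that fell were among the 59. Trh, the precursor of thyrotropin-releasing hormone, was at 129 and 142 CPM in the control and 512 and 513 CPM in clone 2, a log2 change of 1.92 (SE 0.073, adjusted p = 4.89e-09). Its change above the chromosome's median was 1.42. Vax2, a homeobox gene of the ventral eye, and its antisense partner Vax2os had the largest rises on the chromosome. Vax2os went from 0.932 and 1.43 CPM to 7.67 and 7.54 CPM (log2 change 2.69), and Vax2 from 0.553 and 0.434 CPM to 3.45 and 2.40 CPM (log2 change 2.55). They overlap on opposite strands, and since the strand counted is not given in the sources used here, their reads cannot be told apart.

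Other large rises on chromosome 6 were those of C1s1 (2.24), a complement protease, of Clec2i (1.98) and BC064078 (1.91) in the cluster of C-type lectin genes and Rerg (1.88), a small GTPase. Against the trend of the chromosome, Tmem72 fell from 3.79 and 3.10 CPM to 1.04 and 1.43 CPM (log2 change -1.47), and Pdk4, a kinase that shuts off pyruvate dehydrogenase, from 4.89 and 4.34 CPM to 2.33 and 2.25 CPM (-1.01). Stra8, which starts meiosis, fell from 21.9 and 19.4 CPM to 13.8 and 11.6 CPM (-0.71). Ccser1 also passed at an adjusted p of 0.0477, but its call was lost without any 1 of the 6 libraries, at adjusted p between 0.0555 (without clone 1 replicate 2) and 0.231 (without clone 2 replicate 2).

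Genes with known roles in ES cells lie within this block. The transcription factor Nanog was at 499 and 496 CPM in the control and 693 and 607 CPM in clone 2 (log2 change 0.39), a call lost without clone 2 replicate 1 (adjusted p = 0.081). Gdf3 (0.57), Ezh2 (0.54), the methyltransferase of Polycomb complex 2, and Mcm2 (0.69), a helicase subunit of replication origins, rose with it. The sugar transporter Slc2a3 rose beyond the block, from 514 and 458 CPM to 1241 and 1234 CPM, a log2 change of 1.35, which is 0.85 above the chromosome's median (adjusted p = 2.93e-05).

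**Figure D2:**
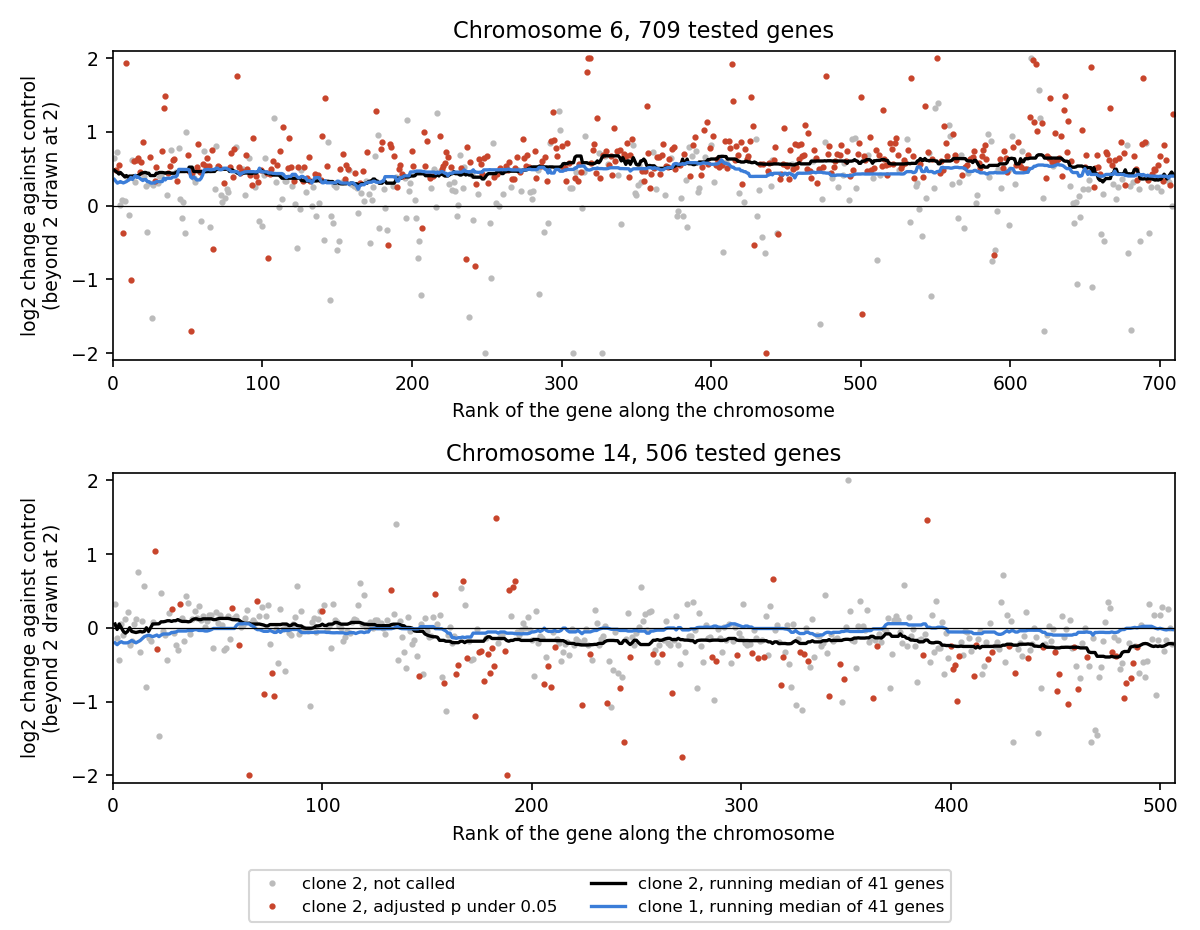
Log2 change of clone 2 against control for the tested genes of chromosomes 6 and 14, in the order in which they lie, with called genes in red, changes beyond 2 drawn at 2, and the running median of clone 2 in black and of clone 1 in blue. On chromosome 6 the black line stays above 0 throughout, and on chromosome 14 it lies near 0 at first and below 0 over the rest.

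Chromosome 14 was lowered over its distal part. The 4 bins up to 40 Mb had medians between -0.063 and 0.072, and the 7 bins beyond had medians between -0.36 and -0.16. From 40 Mb on, 72 of 353 tested genes fell (20.4%) and 8 rose (2.27%), whereas up to 40 Mb 7 of 153 fell (4.58%) and 7 rose (4.58%). The distal shift was -0.20, or 0.872-fold, with -0.19 and -0.18 in the single clone 2 libraries and -0.032 in clone 1. Only 22.9% of the distal genes had a change above 0. The split at 40 Mb was taken from earlier work on these data. A division into 2 levels fitted best, by the sum of absolute deviations, between Wdfy4 (start 32959547) and Arhgap22 (start 33213994), and nearly as well between Prxl2a (start 40993735) and Gm9732 (start 43275036), so the boundary is known only to within that range. Without 1 library the count of falls on chromosome 14 dropped from 79 (15.6%) to 52 and 50 (without control replicate 1 or 2) and to 36 (without either clone 2 replicate), and that of rises from 15 (2.96%) to 8 without control replicate 1 or either clone 2 replicate, while the distal shift stayed between -0.21 and -0.19.

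Relative to the distal median, 22 genes lay lower and 23 higher. The falls named below were drawn from the whole of chromosome 14 and not from its distal part alone. Mbnl2, a splicing regulator, fell from 51.1 and 54.6 CPM to 26.0 and 28.6 CPM (log2 change -0.95, SE 0.089, adjusted p = 2.08e-05), 0.75 below the distal median. It was at 50.4 CPM in clone 1, and the difference from clone 1 was -0.88 (adjusted p = 0.00013). Lpar6, a receptor for lysophosphatidic acid that lies within an intron of Rb1, fell from 43.4 and 51.3 CPM to 25.5 and 22.3 CPM (-0.99), and its reads may include unspliced RNA of Rb1. The membrane protease Mmp14 (-1.05), Kctd12 (-1.03) and Pnma2 (-0.95) fell by similar amounts. Myh7, a cardiac myosin heavy chain, went from 2.07 and 2.35 CPM to 0.642 and 0.862 CPM (-1.54), and lost its call without clone 2 replicate 1 (adjusted p = 0.0755) or control replicate 2 (0.0552). Slc7a8 (-1.01, lost without either clone 2 replicate or control replicate 2, adjusted p up to 0.103) and Duxbl1 (-0.93, lost without clone 2 replicate 2 or control replicate 2, up to 0.108) rested on single libraries too.

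The rises on chromosome 14 ran against its trend. Bmp4, a ligand that supports self-renewal of ES cells together with LIF, rose from 18.2 and 18.4 CPM to 28.0 and 28.8 CPM (log2 change 0.63, SE 0.094, adjusted p = 0.000517). Tnfrsf19, a receptor of the tumour necrosis factor family, rose from 16.8 and 17.1 CPM to 27.5 and 25.9 CPM (0.66). Both were higher still in clone 1, at 40.6 and 35.1 CPM. Rpph1, the RNA of ribonuclease P, went from 877 and 854 CPM to 1165 and 1516 CPM (0.63), and its neighbour Ccnb1ip1 from 559 and 548 CPM to 703 and 925 CPM (0.56), with clone 2 replicate 2 well above replicate 1 in both. Il3ra (1.04) lay in the proximal part and lost its call without any 1 of the 4 control and clone 2 libraries, at adjusted p between 0.0837 and 0.124 (without control replicate 1).

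Chromosomes 3 and Y also stood apart. The shift of chromosome 3 was 0.083 in clone 2 (0.090 and 0.073 in its single libraries) against 0.29 in clone 1. Of its 701 tested genes, 90 rose in clone 2 (12.8%) and 40 fell (5.71%). On the 17 chromosomes other than 3, 6, 14 and Y, the share that rose was 2.37 to 8.85%. On chromosome Y the 10 tested genes were shifted by 0.52, with 0.28 and 0.49 in the single clone 2 libraries, against 0.058 either side of 0 in the control libraries. Clone 1 had a shift of 0.34 on the same chromosome. Of these 10 genes 7 rose in clone 2 and none fell. A run of 6 neighbouring genes of that chromosome rose (median log2 change 0.33, and 0.34 in clone 1). Outside chromosomes 3, 6, 14 and Y, 644 of 12845 tested genes rose (5.01%) and 913 fell (7.11%).

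Outside chromosomes 6 and 14, where 13556 genes were tested, 741 rose (5.47%) and 953 fell (7.03%), so falls were the more frequent direction. Falls were also the larger changes: 247 genes fell by at least 2-fold (1.82%) and 99 rose by as much (0.73%), and the median log2 change was -0.59 among the falls and 0.46 among the rises. Protein-coding genes rose in 5.66% of 12660 and fell in 7.22%. Among 577 long noncoding RNAs 2.77% rose and 3.64% fell. The counts moved with single libraries. The number of rises was 425 and 428 without control replicate 1 or 2 and 348 and 322 without clone 2 replicate 1 or 2. The number of falls was 629 and 539, and 482 and 423, in the same order. At an unadjusted p under 0.05, 29% of all 14771 genes passed.

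**Figure D3:**
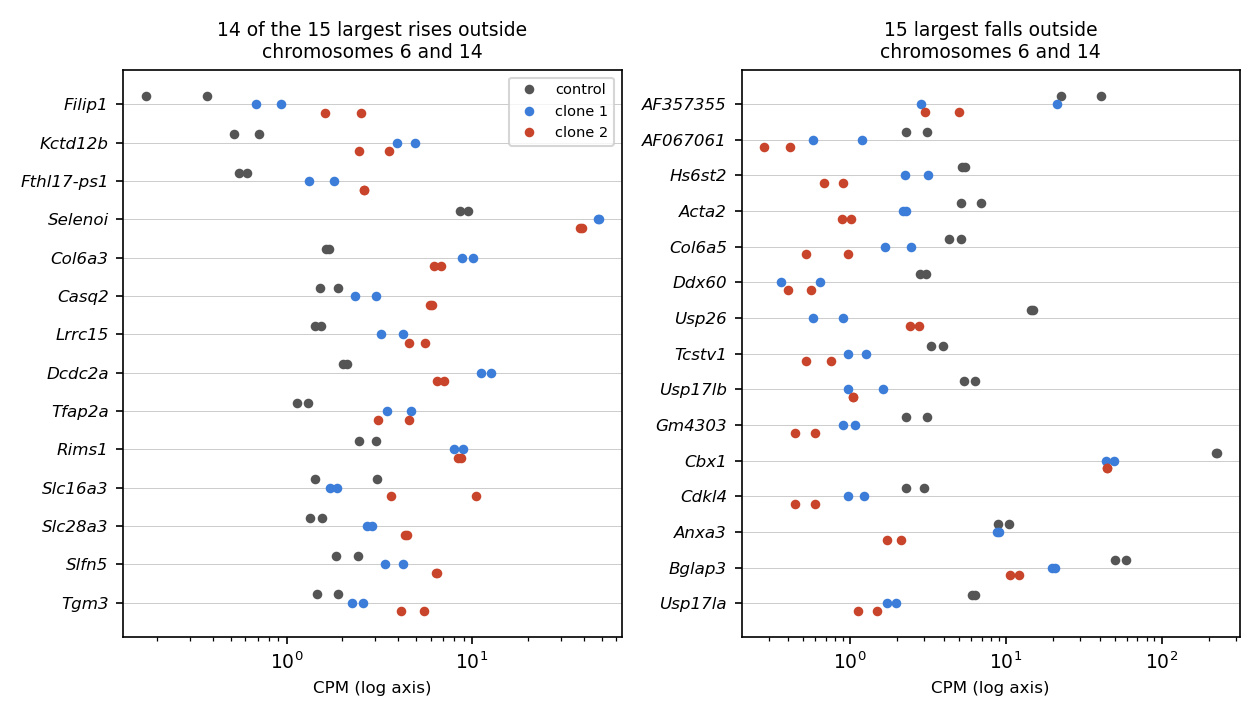
CPM on a log axis in each library for 14 of the 15 largest rises and the 15 largest falls outside chromosomes 6 and 14, with control libraries in grey, clone 1 in blue and clone 2 in red. The red points lie on 1 side of both grey points in every row, by the rule that chose the genes, while the blue points lie between, beside or beyond them.

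The largest rises outside both chromosomes were mostly of genes at low levels in the control, Selenoi apart. Selenoi, which makes the membrane lipid phosphatidylethanolamine, went from 9.55 and 8.64 CPM to 39.0 and 38.2 CPM (log2 change 2.08, SE 0.097, adjusted p = 4.89e-08). Filip1, a filamin-binding protein, had the largest fitted change, 2.91, from 0.175 and 0.372 CPM to 1.61 and 2.51 CPM. Kctd12b went from 0.524 and 0.713 CPM to 2.45 and 3.56 CPM (2.28). Fthl17-ps1, annotated as protein-coding despite its name, went from 0.611 and 0.558 CPM to 2.61 and 2.62 CPM (2.15), and ferritin-like copies near it may share its reads.

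Col6a3, a chain of collagen VI, rose from 1.69 and 1.64 CPM to 6.26 and 6.79 CPM (log2 change 1.97, SE 0.18, adjusted p = 1.96e-05). Lrrc15, a membrane protein with leucine-rich repeats, rose from 1.54 and 1.43 CPM to 4.58 and 5.59 CPM (1.77), and Slc28a3, a nucleoside transporter, from 1.34 and 1.55 CPM to 4.38 and 4.46 CPM (1.61). Slc16a3, a lactate exporter, was at 3.09 and 1.42 CPM in the control and 10.5 and 3.64 CPM in clone 2 (1.63). Its clone 2 libraries differed by more than its control libraries did, and the call was lost without clone 2 replicate 1 (adjusted p = 0.318) or control replicate 2 (0.153).

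The rest of the rises named fell into no list used here, apart from Tfap2a. Casq2, a calcium-binding protein of muscle, rose from 1.89 and 1.52 CPM to 6.06 and 5.92 CPM (1.81). Dcdc2a, a doublecortin-domain protein, rose from 2.13 and 2.01 CPM to 6.50 and 7.09 CPM (1.71), and Rims1, a scaffold of synaptic vesicle release, from 2.45 and 3.04 CPM to 8.39 and 8.74 CPM (1.65). Slfn5 (1.59), of the Schlafen family, and Tgm3 (1.53), a transglutaminase, rose as well. Tfap2a, a transcription factor of trophectoderm and neural crest, went from 1.14 and 1.30 CPM to 4.58 and 3.11 CPM (1.65, SE 0.27, adjusted p = 0.00102).

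The 15 largest falls outside both chromosomes included Cbx1 (above), and AF357355, AF067061, Tcstv1, Usp17lb and Usp17la, whose values are given below. Hs6st2, an enzyme that sulfates heparan sulfate, fell from 5.50 and 5.20 CPM to 0.683 and 0.8998 CPM (log2 change -2.75, SE 0.26, adjusted p = 2.44e-05). Acta2, smooth muscle actin, fell from 5.12 and 6.91 CPM to 0.883 and 1.01 CPM (-2.66). Col6a5, another collagen VI chain, fell from 5.18 and 4.31 CPM to 0.522 and 0.975 CPM (-2.65), the opposite direction to Col6a3. Anxa3, a membrane-binding annexin, fell from 8.88 and 10.5 CPM to 1.73 and 2.14 CPM (-2.32), and was at 8.92 CPM in clone 1.

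Usp26, an X-linked deubiquitinase of the testis whose gene lies close to Hs6st2, fell from 14.5 and 14.9 CPM to 2.41 and 2.78 CPM (-2.50, SE 0.18, adjusted p = 2.58e-06), and was lower still in clone 1 at 0.736 CPM. Ddx60, a helicase of antiviral sensing, fell from 2.80 and 3.07 CPM to 0.401 and 0.562 CPM (-2.59). Bglap3, an osteocalcin-related gene and after Cbx1 the most abundant of the 15 in the control, went from 59.5 and 49.97 CPM to 12.1 and 10.6 CPM (-2.27, SE 0.12, adjusted p = 9.7e-08). Cdkl4 (-2.32), a kinase, and Gm4303 (-2.36), a predicted gene of a repeated family, completed this set.

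Gene lists were set beside these background shares. They cover 32 families, pathways and marker sets. Their members were called by the same test over all genes, and a count near 7.89% higher or 7.08% lower is no more than the background. Over all lists 297 distinct members were called, and 167 of them lost the call when 1 of the 6 libraries was left out. Members named below kept their call in all 6 of these fits unless another value is given beside them.

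**Figure D4:**
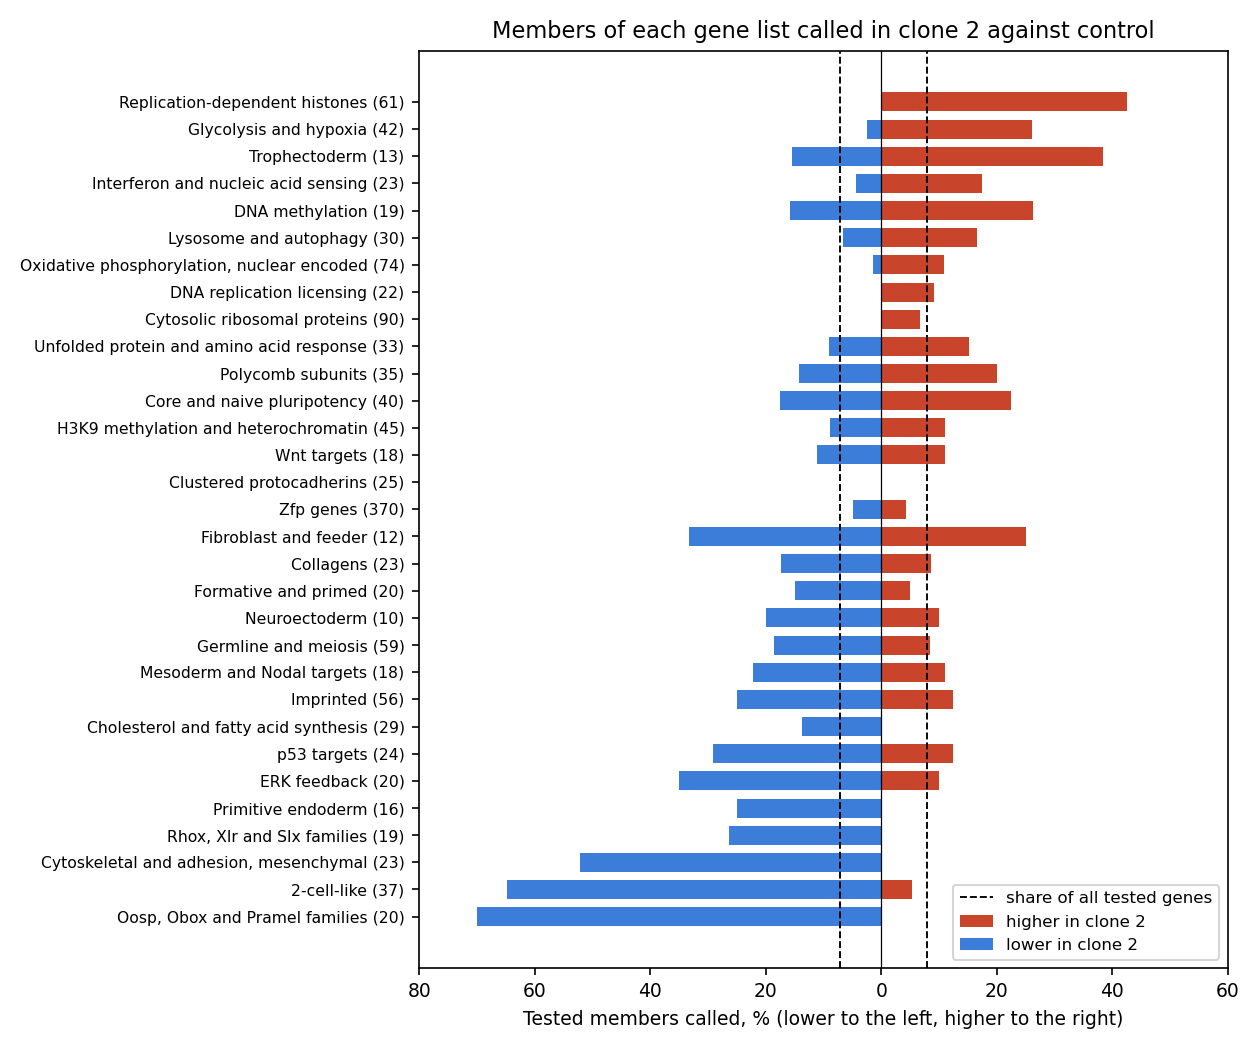
Share of the tested members of each list that were called higher (right) or lower (left) in clone 2, with dashed lines at the shares among all tested genes, 7.89% and 7.08%. The list of the 3 HP1 genes is not drawn. The Oosp, Obox and Pramel list (70%) and the 2-cell-like list (64.9%) reach furthest to the left, and the replication-dependent histones reach furthest to the right.

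Genes of the 2-cell-like state were the list with most falls. Of 37 tested members 24 fell and 2 rose (Rpl39l, and Calcoco2, whose call was lost without any 1 of the control and clone 2 libraries, adjusted p 0.0741 to 0.173), and the median log2 change was -1.14 against -0.00091 for all tested genes. Because the libraries are of bulk cells, fewer cells in this state and less RNA in each such cell cannot be told apart. The Zscan4 genes, whose protein binds DNA and acts on telomeres in ES cells, fell by 1.48 to 1.85 on the log2 scale. Zscan4c was at 26.1 and 24.9 CPM in the control and 6.62 and 7.46 CPM in clone 2 (log2 change -1.85, SE 0.13, adjusted p = 2.14e-06). Zscan4f was at 27.2 and 27.6 CPM against 7.95 and 8.32 CPM (-1.75), and Zscan4a at 23.6 and 24.0 CPM against 7.91 and 7.39 CPM (-1.64). The clone 2 libraries lay close together and far below the control in each.

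The promoters of these genes are shown because these members fell together, and those of the Zscan4 genes are near copies of one another. The windows are the 250 bases before the annotated start in RefSeq on GRCm38.p6, read on the strand of the gene, with each match to TATAAAA in capitals. Zscan4c lies at chr7:11005495-11005744, Zscan4f at chr7:11397665-11397914 and Usp17lc at chr7:103416446-103416695, all on the plus strand.
Zscan4c: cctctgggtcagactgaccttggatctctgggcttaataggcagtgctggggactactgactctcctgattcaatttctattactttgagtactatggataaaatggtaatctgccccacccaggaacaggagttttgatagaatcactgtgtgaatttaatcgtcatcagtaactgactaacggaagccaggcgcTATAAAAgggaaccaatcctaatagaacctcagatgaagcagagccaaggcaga
Zscan4f: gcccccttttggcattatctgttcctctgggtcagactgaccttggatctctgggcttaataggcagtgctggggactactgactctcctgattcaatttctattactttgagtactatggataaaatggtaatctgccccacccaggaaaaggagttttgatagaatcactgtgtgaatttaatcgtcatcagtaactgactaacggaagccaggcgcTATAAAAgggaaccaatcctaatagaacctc
Usp17lc: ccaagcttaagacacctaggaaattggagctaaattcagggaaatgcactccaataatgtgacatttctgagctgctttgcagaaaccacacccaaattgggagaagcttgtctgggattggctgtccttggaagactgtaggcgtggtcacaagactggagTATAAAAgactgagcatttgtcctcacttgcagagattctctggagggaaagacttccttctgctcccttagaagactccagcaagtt

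The Zscan4c and Zscan4f windows are offset against each other, and 226 of the 227 bases they share are equal (99.6%). Over the 4 Zscan4 genes with a window, pairs were 94.7 to 99.6% equal. For the 4 Usp17l genes the best match without gaps was sought over a limited range of offsets. It ran from 33.0% (Usp17ld with Usp17la or Usp17lb) and 71.1% (Usp17la with Usp17lb) to 96.1% (Usp17lc with Usp17ld). Usp17lc was also 95.2% equal to Usp17la. The pairs at 33.0% may line up only at an offset outside that range, so their likeness is not known. The motif TATAAAA, searched on the strand of the gene only, was in the windows of all 4 Zscan4 genes and of 3 of 4 Usp17l genes, against 3.02% of all 32851 windows of this length. A match describes these letters and no more. With Zscan4 copies this alike, reads may have been shared among Zscan4 genes, and the value of each copy is uncertain.

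The deubiquitinase genes of the Usp17l family fell as well. Usp17lc went from 8.70 and 6.97 CPM to 2.37 and 2.21 CPM (log2 change -1.77), Usp17lb from 6.35 and 5.36 CPM to 1.04 and 1.05 CPM (-2.48), and Usp17la from 6.03 and 6.38 CPM to 1.49 and 1.12 CPM (-2.25). The Tcstv genes and their neighbours on chromosome 13 fell too. Gm20767 went from 8.65 and 9.57 CPM to 1.81 and 2.14 CPM (-2.20), Tcstv1 from 3.93 and 3.31 CPM to 0.522 and 0.750 CPM (-2.50), and AF067061 from 2.30 and 3.10 CPM to 0.281 and 0.412 CPM (-2.94). Both are families of repeated genes, so reads may have been shared among their copies too. Clone 1 had a median of -1.06 over the same list.

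The Oosp, Obox and Pramel families, expressed in oocytes and early embryos, had 14 of 20 tested members lower and none higher (median -1.31). All 14 were Pramel genes. Pramel7, which promotes the naive state, was by far the most abundant, at 68.9 and 64.2 CPM in the control and 33.0 and 32.8 CPM in clone 2 (log2 change -1.02, SE 0.082, adjusted p = 7.23e-06). Pramel19 fell from 8.73 and 6.97 CPM to 2.61 and 2.21 CPM (-1.71), Pramel20 from 7.10 and 6.10 CPM to 2.41 and 1.65 CPM (-1.71), and Pramel50 from 4.13 and 5.11 CPM to 1.20 and 1.12 CPM (-1.98). The 12 neighbouring tested genes of this family and its surroundings on chromosome 4 formed the longest run of falls outside chromosomes 6 and 14 (median -1.76).

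Germline and meiosis genes had 11 of 59 tested members lower and 5 higher (median -0.25). Sycp1, a rod of the synaptonemal complex, fell from 23.7 and 24.8 CPM to 8.99 and 10.1 CPM (log2 change -1.34, SE 0.14, adjusted p = 3.3e-05). Ddx4, the germ cell helicase, fell from 16.1 and 18.7 CPM to 7.63 and 8.44 CPM (-1.12), and Dazl, which binds RNA in germ cells, from 117 and 104 CPM to 59.3 and 63.0 CPM (-0.85). Tex15 (-0.73), which acts in silencing of transposons in germ cells, and Zcwpw1 (-0.79), a reader of histone marks in meiosis, fell too. In the other direction, the cohesin subunit Smc1b rose from 18.6 and 17.8 CPM to 26.7 and 27.7 CPM (0.58), and Hormad2, of the meiotic chromosome axis, from 3.03 and 3.56 CPM to 6.70 and 6.04 CPM (0.95). The count of falls was 7 without clone 2 replicate 1.

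Imprinted genes, which are expressed from the allele of 1 parent, had 14 of 56 tested members lower and 7 higher (median -0.16). The deepest falls lay in the Dlk1-Dio3 domain of chromosome 12, whose noncoding RNAs Meg3, Rian and Mirg come from the maternal allele and carry clusters of small nucleolar RNAs and miRNAs. Of 14 tested genes between Begain and Dio3, 12 fell and none rose. In the test against clone 1, 8 were lower, where 3.77% of all tested genes were. Dio3, 1 of the 12 (-0.73), had fallen more in clone 1 (-1.62) and was higher in clone 2 than there by 0.89 (adjusted p = 0.0334), and its call against the control was lost without any 1 of the control and clone 2 libraries (adjusted p 0.0644 to 0.128). Rian was at 218 and 234 CPM in the control, 64.2 and 64.4 CPM in clone 2, and 239 CPM on average in clone 1 (log2 change -1.81 against control, SE 0.092, adjusted p = 9.7e-08, and -1.89 against clone 1). Meg3 was at 39.6 and 28.6 CPM, 9.92 and 11.8 CPM, and 32.4 CPM in the same order (-1.65), and Mirg at 20.8 and 14.2 CPM, 4.54 and 4.84 CPM, and 19.03 CPM (-1.90). Clone 2 lay below both other groups in all 3.

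**Figure D5:**
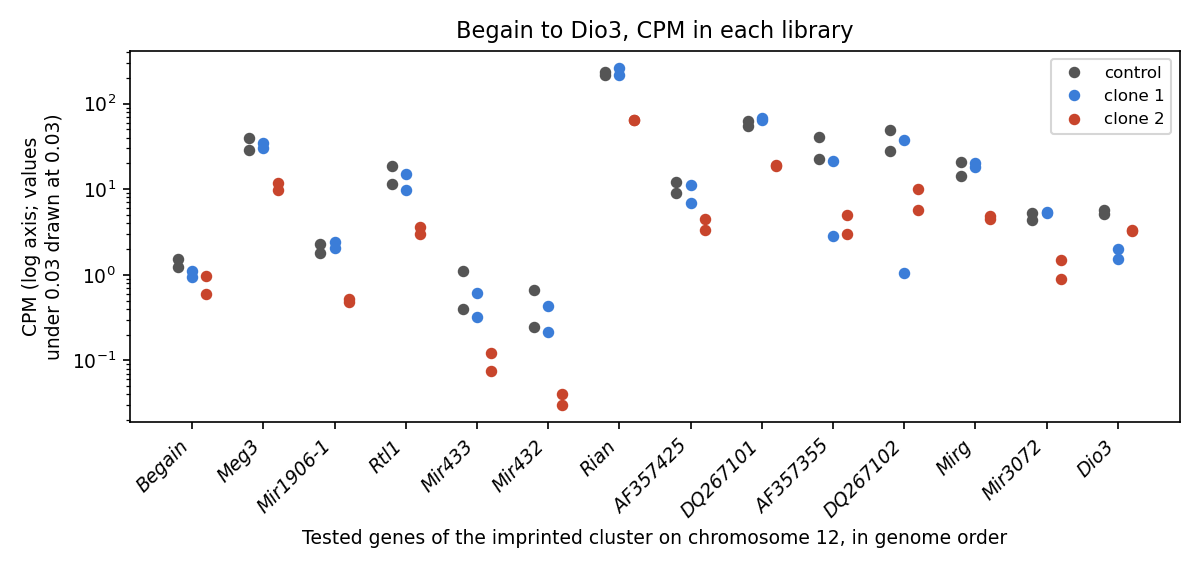
CPM on a log axis in each library for the 14 tested genes from Begain to Dio3 in the order in which they lie, with control libraries in grey, clone 1 in blue and clone 2 in red. From Meg3 to Mir3072 the red points lie under the grey ones, the blue points mostly lie with the grey ones, and 1 clone 2 value of Mir432 at 0 is drawn at the lower edge.

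The Meg3 promoter and the mature miRNAs of the tested miRNA genes that fell most clearly are shown, since the members of this domain moved together in clone 2. The window is the 250 bases before the annotated start of Meg3, chr12:109540746-109540995 on the plus strand of GRCm38.p6, with each CG in capitals. It holds 10 CG pairs, where the median over all windows is 6, and no methylation was measured here. The miRNAs have their seed, bases 2 to 8, in capitals. They lie at chr12:109544588-109544609, chr12:109747893-109747914 and chr12:109747928-109747949, on the plus strand, and no seed is shared among them.
Meg3: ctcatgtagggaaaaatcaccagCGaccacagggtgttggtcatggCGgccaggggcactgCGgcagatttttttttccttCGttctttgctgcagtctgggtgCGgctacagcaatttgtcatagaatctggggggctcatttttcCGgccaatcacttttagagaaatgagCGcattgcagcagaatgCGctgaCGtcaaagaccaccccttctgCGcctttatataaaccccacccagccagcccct
mmu-miR-1906: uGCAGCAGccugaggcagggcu
mmu-miR-3072-5p: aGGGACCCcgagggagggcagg
mmu-miR-3072-3p: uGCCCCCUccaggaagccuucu

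The reads of these libraries came from RNA fragments and not from mature miRNAs, so the counts of a miRNA gene measure RNA over its locus. Mir1906-1, which lies within Meg3, went from 1.78 and 2.29 CPM to 0.482 and 0.525 CPM (log2 change -2.002), and Mir3072, within Mirg, from 5.33 and 4.37 CPM to 0.883 and 1.4997 CPM (-2.01). Both overlap their host, so their reads may be those of the host. DQ267101, a small nucleolar RNA gene within Rian, went from 62.1 and 54.8 CPM to 19.2 and 18.8 CPM (-1.62), and AF357355, another, from 22.7 and 41.04 CPM to 3.01 and 5.02 CPM (-2.98), a call lost without clone 2 replicate 1 (adjusted p = 0.0538). Rtl1, a retrotransposon-derived gene that is expressed from the paternal allele, fell from 18.7 and 11.5 CPM to 3.01 and 3.64 CPM (-2.18, SE 0.25, adjusted p = 7.76e-05). Its annotated span overlaps Meg3 and Rian at its ends, so its reads are uncertain as well.

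Other imprinted genes moved in either direction. Grb10, an adaptor that restrains growth signals, fell from 59.2 and 66.0 CPM to 23.7 and 22.6 CPM (log2 change -1.44, SE 0.089, adjusted p = 6.82e-07), and lay 1.09 below clone 1 on the log2 scale. Gnas, a G protein subunit, fell from 84.2 and 81.3 CPM to 44.0 and 46.5 CPM (-0.87), and H19 from 19.3 and 21.5 CPM to 13.5 and 12.2 CPM (-0.67). Atp10a (-1.16) fell, and Peg10 (-0.37) fell although it lies on chromosome 6. Snrpn rose from 66.8 and 70.4 CPM to 95.6 CPM in both libraries (0.48), with Snurf, which shares its transcript, at 0.49. Mest (0.43) and Copg2 (0.46) rose by about the shift of chromosome 6, where they lie, and Impact by 0.32.

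Genes of glycolysis and the hypoxia response had 11 of 42 tested members higher and 1 lower (median 0.18, against -0.035 in clone 1). Of these rises 6 lie on chromosome 6, Slc2a3 (above), Ldhb, Gapdh, Tpi1, Hk2 and Kdm3a. Ldhb, a lactate dehydrogenase subunit, rose from 30.0 and 32.6 CPM to 79.6 and 77.7 CPM (1.33) and Tpi1, triosephosphate isomerase, from 58.6 and 46.8 CPM to 114 and 91.6 CPM (0.96). Both stayed higher when set against the median of the chromosome, by 0.83 and 0.46. Gapdh (0.67) and Kdm3a (0.47) did not pass in that comparison, and the call of Hk2 (0.34) was lost without clone 2 replicate 1 (adjusted p = 0.051). Outside the block, Ldha, the other lactate dehydrogenase subunit, rose from 256 and 250 CPM to 400 and 326 CPM (0.52, adjusted p = 0.00122).

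The other rises of this list rested on clone 2 replicate 1. Bnip3, a mitochondrial target of hypoxia signalling, was at 7.19 and 9.39 CPM in the control and 16.6 and 11.998 CPM in clone 2 (adjusted p = 0.0331, and 0.259 without that library). Aldoc, an aldolase, was at 1.80 and 2.11 CPM and at 5.30 and 2.77 CPM (0.0309, and 0.374 without it), and Slc16a3 showed the same (above). The glucose transporter Slc2a1 was at 103 and 113 CPM and at 138 and 127 CPM (0.0181, and 0.179 without it). Each of these 4 also lost its call without at least 1 control library, at adjusted p of up to 0.211. The list had 6 members higher without clone 2 replicate 1, and 12 without clone 2 replicate 2. Hif1a itself was at 342 and 347 CPM and at 293 and 301 CPM (adjusted p = 0.0399, up to 0.219 without 1 library).

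The Ldha promoter is shown because it was the member outside chromosome 6 whose call held without any 1 library. The window is chr7:46845554-46845803 on the plus strand of GRCm38.p6, the 250 bases before the annotated start in RefSeq. Matches to ACGTG and GCGTG, the core to which HIF factors bind, are in capitals, searched on both strands, so that each CACGTG holds a match on either strand.
Ldha: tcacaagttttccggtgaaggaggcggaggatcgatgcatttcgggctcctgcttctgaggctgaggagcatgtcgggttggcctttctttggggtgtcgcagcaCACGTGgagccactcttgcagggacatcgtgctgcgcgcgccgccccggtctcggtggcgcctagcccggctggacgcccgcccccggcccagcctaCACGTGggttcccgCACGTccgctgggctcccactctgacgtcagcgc

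The window holds 5 such matches, and 38.6% of all windows of this length hold at least 1. Of 39 genes of the list with a window, 36 had a match in at least 1 of their windows, against 41.5% of all genes. Both motifs contain a CG, and the share over all genes was not matched for CG content. The Ldha window holds 25 CG pairs, where the median over all windows is 6. The letters were found in the windows of listed genes whether or not these rose, and the match says nothing of binding.

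The replication-dependent histone genes, whose RNAs lack a poly(A) tail and accumulate in S phase, had 26 of 61 tested members higher and none lower (median 0.31, against 0.065 in clone 1). Of 51 members on chromosome 13, 19 rose, and of 9 on chromosome 3, 6 rose. On chromosome 3, H3c14 rose from 261 and 255 CPM to 363 and 380 CPM (log2 change 0.53, SE 0.064, adjusted p = 0.000113), H2ac18 from 489 and 473 CPM to 672 and 697 CPM (0.51) and H2ac20 from 179 and 193 CPM to 278 and 256 CPM (0.52). Only these 3 kept their call in every fit that left out 1 library. On chromosome 13, H4c12 went from 73.4 and 59.4 CPM to 90.9 and 114 CPM (0.62, adjusted p = 0.00324, and 0.0511 without clone 2 replicate 2 or control replicate 2). The count was 5 without clone 2 replicate 2, 10 without control replicate 2, 19 without clone 2 replicate 1, 21 without control replicate 1, and 31 without either clone 1 library. Histone genes of a class are close copies, and reads may have been shared among them.

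Cytoskeletal and adhesion genes of mesenchymal cells had 12 of 23 tested members lower and none higher (median -0.50, against -0.21 in clone 1). In the test against clone 1, 8 members were lower, where 3.77% of all tested genes were. Beside Anxa3 (above), Tagln, an actin-binding protein of smooth muscle, fell from 19.4 and 22.8 CPM to 7.87 and 7.16 CPM (log2 change -1.49, SE 0.14, adjusted p = 1.67e-05). Anxa1 fell from 9.87 and 8.21 CPM to 2.73 and 1.39 CPM (-2.14), Lgals1, a galectin, from 78.8 and 83.0 CPM to 44.9 and 46.8 CPM (-0.82), and Tpm1, a tropomyosin, from 180 and 201 CPM to 129 and 117 CPM (-0.63). Myl9, a myosin light chain, fell from 7.13 and 10.3 CPM to 4.13 and 2.32 CPM (-1.43). The count was 7 without control replicate 2. The summed fibroblast markers were lower in clone 2 as well, but without Acta2 their sums overlapped (above), and their part in this result was not tested. Among fibroblast and feeder markers 4 of 12 fell and 3 rose, and the defining genes Col1a2, Col3a1, Postn, Lum and Dcn were near 0 in all libraries. Of 23 collagen genes 4 fell and 2 rose, Col5a2 going from 3.96 and 3.35 CPM to 1.41 and 0.937 CPM (-1.64).

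Targets of p53 divided by chromosome. Of 24 tested members 7 fell, none of them on chromosome 6, and the 3 that rose, Gadd45a (0.63), Xpc (0.53) and Tigar (0.45), all lie on chromosome 6. None of these 3 passed when set against the chromosome's median. Plk2, a kinase of the stress response, fell from 105 and 112 CPM to 55.4 and 60.7 CPM (log2 change -0.90, SE 0.074, adjusted p = 8.57e-06). Perp, a membrane protein of cell death and adhesion, fell from 40.3 and 49.6 CPM to 26.1 and 25.8 CPM (-0.79), the cell cycle inhibitor Cdkn1a from 36.9 and 34.8 CPM to 25.9 and 24.5 CPM (-0.51) and Mdm2, the ligase that degrades p53, from 261 and 264 CPM to 201 and 202 CPM (-0.38). In the test of the difference between the clones, 13 of the 24 members were lower in clone 2 than in clone 1 and none was higher. Over all tested genes that test called 3.77% lower and 2.53% higher. Against the control, 9 members rose and 1 fell in clone 1, and the share of all genes called in clone 1 is not given here. The median log2 change was 0.13 in clone 1 and -0.19 in clone 2, so the difference holds a rise in clone 1 as well. The count of falls was 4 without either clone 2 replicate.

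Feedback genes of the ERK pathway, which MEK inhibition keeps low in this medium, had 7 of 20 tested members lower and 2 higher (median -0.24). Phlda1 fell from 33.9 and 41.4 CPM to 24.2 and 22.5 CPM (log2 change -0.69), the ERK phosphatase Dusp6 from 84.0 and 82.6 CPM to 56.3 and 61.4 CPM (-0.50, SE 0.091, adjusted p = 0.00218) and Jun from 19.2 and 21.3 CPM to 13.6 and 13.9 CPM (-0.55). In these 3 the clone 2 libraries lay below both control libraries and below the clone 1 mean. Spry2, an inhibitor of the pathway on distal chromosome 14, fell by 0.40 on the log2 scale, a call lost without clone 2 replicate 2 (adjusted p = 0.142) or control replicate 2 (0.0798), and it did not pass when set against the median of that distal part. The count of falls was 3 without control replicate 2 or clone 2 replicate 2.

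Core and naive pluripotency genes had 9 of 40 tested members higher and 7 lower, with a median of 0.013, and no member changed by more than 0.63 on the log2 scale. Tcl1, a coactivator of AKT kinase, rose from 32.8 and 31.4 CPM to 50.9 and 47.2 CPM (0.61, adjusted p = 0.000429) and Tet2, an enzyme of DNA demethylation, from 474 and 473 CPM to 600 and 608 CPM (0.35). Of the 16 calls, those of Gdf3, Tcl1, Bmp4 and Tet2 held without any 1 library. Genes of the formative and primed states had 3 of 20 lower and 1 higher, with Igfbp3, which binds insulin-like growth factors, going from 6.49 and 6.195 CPM to 3.33 and 2.51 CPM (-1.12).

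Lineage markers changed one by one. In the trophectoderm list 5 of 13 rose and 2 fell (median 0.38). Outside chromosomes 6 and 14, 3 of its 10 tested members rose and 2 fell (median 0.059). Eomes, a T-box factor of trophoblast and mesendoderm, rose from 7.13 and 8.46 CPM to 19.9 and 17.7 CPM (log2 change 1.27, SE 0.13, adjusted p = 4.15e-05), and was 0.79 above clone 1 on the log2 scale (adjusted p = 0.00399). Elf5 and Cdx2, defining genes of that lineage, were near 0. Tead4 (0.54), on chromosome 6, rose by about the shift of its chromosome. Among mesoderm genes and Nodal targets 4 of 18 fell and 2 rose. Lefty2, an inhibitor of Nodal, fell from 199 and 188 CPM to 108 and 97.2 CPM (-0.92, SE 0.074, adjusted p = 7.23e-06) and Lefty1 from 11.7 and 9.48 CPM to 5.98 and 4.50 CPM (-1.02), and both were lower still in clone 1, at 57.7 and 2.75 CPM.

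Of 10 neuroectoderm genes 2 fell and 1 rose. Sox1, the early neural factor, fell from 11.2 and 13.4 CPM to 6.42 and 4.95 CPM (-1.11, SE 0.16, adjusted p = 0.000371), and stayed at 12.1 CPM in clone 1. Map2 (-0.97) fell and the adhesion molecule Ncam1 (0.59) rose. Among 16 primitive endoderm genes 4 fell and none rose (median -0.29). Lamb1, a laminin chain, fell from 44.0 and 40.98 CPM to 29.3 and 28.7 CPM (-0.55) and Rhox5 from 65.0 and 73.8 CPM to 44.9 and 47.3 CPM (-0.59).

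Chromatin regulators changed by small amounts. Of 45 genes of lysine 9 methylation and heterochromatin 5 rose and 4 fell. Smarcad1 (0.59), a remodeller that works at heterochromatin, and the demethylase Kdm3a rose on chromosome 6 and did not pass when set against its median, and Mbd1, which binds methylated DNA, rose from 24.8 and 26.8 CPM to 36.2 and 39.9 CPM (0.56, adjusted p = 0.00102). Of 19 genes of DNA methylation 5 rose and 3 fell, among them Mbd4 (0.61) and Gadd45a on chromosome 6. Of 35 Polycomb subunits 7 rose and 5 fell, and 4 of the rises, Ezh2, Aebp2 (0.43), Pcgf1 (0.80) and Phc1, were on chromosome 6. The call of Phc1 (0.38) was lost without control replicate 1 (adjusted p = 0.266), clone 2 replicate 1 (0.182) or clone 2 replicate 2 (0.0804). Off that chromosome, Epop, a partner of Polycomb complex 2, rose from 95.8 and 100.3 CPM to 136 and 149 CPM (0.54), and Yaf2 fell from 10.1 and 11.2 CPM to 6.74 and 6.37 CPM (-0.70).

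In the unfolded protein and amino acid response 5 of 33 rose (15.2%) and 3 fell (9.09%). Asns, asparagine synthetase, rose from 541 and 546 CPM to 873 and 825 CPM (0.64), and Pdia4 by 0.50, both on chromosome 6 and neither past the test when set against its median. Slc7a3, an arginine transporter on the X chromosome, rose from 96.8 and 95.1 CPM to 130 CPM in both libraries (0.44). Cholesterol and fatty acid synthesis had 4 of 29 lower (13.8%) and none higher, led by Hmgcs1, which went from 457 and 406 CPM to 276 and 291 CPM (-0.61, SE 0.072, adjusted p = 9.25e-05). Among lysosome and autophagy genes 5 of 30 rose (16.7%) and 2 fell (6.67%), and the protease Ctsl rose from 174 and 166 CPM to 268 and 283 CPM (0.70). Oxidative phosphorylation had 8 of 74 higher (10.8%) and 1 lower, with Cox6b1 at 0.50 and Ndufb4 at 0.43 outside chromosome 6.

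Among genes of interferon signalling and nucleic acid sensing 4 of 23 rose and 1 fell. Ifitm1, which blocks virus entry, rose from 5.59 and 6.97 CPM to 16.3 and 11.4 CPM (1.14), with Ifitm3 at 0.52, and Bst2, which tethers virus particles, fell from 9.02 and 8.92 CPM to 4.78 and 3.64 CPM (-1.09). Cytosolic ribosomal proteins had 6 of 90 higher and none lower, with Rpl32 (0.82) and Rps4l (0.55) on chromosome 6, and DNA replication licensing had 2 of 22 higher. Of 370 Zfp genes, most of them zinc finger repressors, 16 rose and 18 fell. Wnt targets had 2 of 18 in each direction, and each of these 4 calls was lost when 1 library was left out, at highest adjusted p of 0.135 (Cdx1), 0.099 (Sp5), 0.283 (Axin2) and 0.286 (Ccnd1), each of them without a clone 2 library. Clustered protocadherins, cell adhesion genes in large tandem arrays, had no call among 25 tested members (median 0.22), the gene with the smallest adjusted p being Pcdhga1 (0.0926). Of 19 Rhox, Xlr and Slx genes of the X chromosome 5 fell, among them Xlr5a (-0.57).

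Some neighbouring genes moved together outside the 2 shifted chromosomes as well. Runs of at least 4 tested neighbours that were all called in 1 direction numbered 14, 9 of falls (58 of the 953 genes) and 5 of rises (22 of the 741), against 37 runs on chromosome 6, the longest of 13 genes. The runs of falls covered the Meg3 domain (9 genes, median log2 change -2.002), the Tcstv region of chromosome 13 (8 genes, -2.07), the Zscan4 cluster of chromosome 7 (5 genes, -1.73) and a group of 7 repeated genes around BB287469 on chromosome 12 (-1.12). The 4 genes from Steap2 to Adam22 on chromosome 5 had a median of -1.01 and those from Sema7a to Pml on chromosome 9 of -0.82. Higher runs included the 4 genes from Serinc3 to Ada on chromosome 2 (0.78), the 4 from Oat to Fam53b on chromosome 7 (0.93) and the Ifitm genes (0.69). Which runs are named was chosen after their values were seen.

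The test between the clones shows where clone 2 differed from clone 1. In it 373 genes were higher in clone 2 than in clone 1 (2.53%) and 557 lower (3.77%), and both clones were set against the same control libraries. Of the genes called against the control, 352 also differed from clone 1 in the same direction, 293 of them outside chromosomes 6 and 14, 36 on chromosome 6 and 23 on chromosome 14. Both tests use the same clone 2 libraries, so a deviation of these moves both calls in the same direction and raises this overlap. The largest difference upward was that of A2m, a protease inhibitor on chromosome 6, at 7.86 and 7.93 CPM in the control, 29.6 and 22.8 CPM in clone 2 and 3.59 CPM in clone 1. It was 2.87 higher in clone 2 than in clone 1 on the log2 scale (adjusted p = 8.15e-07). Nlrp4c, of a family of oocyte genes, was 1.49 higher, at 4.83 and 4.21 CPM, 10.2 and 10.4 CPM, and 3.64 CPM in the same order. Downward, Anxa3 (-2.20), Mir1906-1 (-2.16), Mir3072 (-2.14), Mirg (-2.02), Rtl1 (-1.90), Rian (-1.89), DQ267101 (-1.79) and Hs6st2 (-1.77) differed most. Such a difference does not mean that clone 1 lacked the change: against the control, Hs6st2 changed by -0.98 in clone 1 (adjusted p = 0.00847), Bglap3 by -1.43 (3.31e-06), Zscan4c by -1.21 (3.73e-05), Gnas by -0.59 (2e-04) and Trh by 1.32 (1.43e-07), while Anxa3 was at -0.12 (0.673). Of the 557 genes lower than in clone 1, 117 lie on chromosome 3, 47 on chromosome 14 and 24 on chromosome 6. Of the 373 higher, 5, 11 and 40 lie there in the same order. These chromosomes hold 701, 506 and 709 of the 14771 tested genes. Without clone 2 replicate 1 the counts were 115 and 155, without clone 2 replicate 2 they were 128 and 166, without clone 1 replicate 1 they were 156 and 238, and without clone 1 replicate 2 they were 242 and 338.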

How the data were processed

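The unit of the deposited values is counts of raw reads for each Entrez gene, beside a gene width in bases. The authors aligned reads with STAR 2.5.0a to mm10 (GRCm38), per the submitters' processing notes, and the libraries were made with the ScriptSeq v2 kit after Turbo DNase, per the labels' protocols. For the counting tool, its strand setting and its treatment of reads that match several genes: not given in the sources used here. Of 24467 gene IDs, 24437 matched RefSeq on GRCm38.p6, and the 30 others held 0.389 to 1.62% of each library's reads. The whole-number counts of the replicates were compared, and none looked like a split of 1 library.

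Counts were fitted with edgeR 4.0.16 in R 4.3.3 over all 6 libraries (3 groups of 2, 3 residual degrees of freedom), after filterByExpr and with TMM factors of 0.992 to 1.012. The contrast clone 2 minus control was tested by the two-sided quasi-likelihood F test, with Benjamini-Hochberg adjustment and a threshold of 0.05. CPM are scaled by TMM. Shifts of single libraries use log2(CPM + 0.5), and a change against the chromosome's median comes from a fit in which each chromosome was centred on its median, chromosome 14 in 2 parts split at 40 Mb. Depth ranged from 24628872 to 34641560 reads, and counting error is relatively largest at low counts.

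Alternatives were a fit of the 4 libraries alone, RLE and library size scaling, TMM without chromosomes 6 and 14, other filters, DESeq2 1.42.0, limma-voom 3.58.1, a replicate block and fits without 1 library at a time. The replicate numbers were not taken to pair libraries. The script was tested on simulated data, where the share of false calls was above the threshold and part of the smaller changes was missed. Genes named by rule are the 3 HP1 genes, the largest called changes with groups that do not overlap and at least 2 CPM (15 per direction outside chromosomes 6 and 14, 8 and 5 on chromosome 6, 5 and 8 on chromosome 14), the 8 per direction that differ most from clone 1, and up to 4 members per list with the smallest adjusted p. Results for 3 genes named by the rule are not reported here. Other named genes were chosen after their values were seen, among them the further called members of the lists. The comparison, the lists and the split of chromosome 14 were chosen with earlier results of these data known.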

Additional observations from a re-analysis of the deposited data

Results flagged for a closer look

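The results below were marked because the change against the control differed between the clones, by the edgeR test of clone 2 against clone 1 (adjusted p under 0.05 over all tested genes). The value of each is the log2 difference, clone 2 minus clone 1, and both clones share the control libraries.

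Among the genes of the Dlk1-Dio3 domain and other imprinted genes, clone 2 was lower at Mir1906-1 (-2.16), Mir3072 (-2.14), Mirg (-2.02), Rtl1 (-1.90), Rian (-1.89), DQ267101 (-1.79), Meg3 (-1.57), Grb10 (-1.09) and Gnas (-0.29). Among genes of the cytoskeleton, the matrix and the cell surface it was lower at Anxa3 (-2.20), Hs6st2 (-1.77), Col6a5 (-1.46), Acta2 (-1.24), Tagln (-0.95), Lgals1 (-0.56), Bglap3 (-0.84) and Bst2 (-0.66). On chromosome 14 it was lower at Myh7 (-1.38), Mbnl2 (-0.88), Spry2 (-0.53) and Lpar6 (-0.46). Among the 2-cell-like, germline and neural genes it was lower at Gm20767 (-0.99), Zscan4c (-0.64), Dazl (-0.45) and Sox1 (-1.09). Targets of p53 and of ERK gave Perp (-0.93), Plk2 (-0.65), Phlda1 (-0.69), Jun (-0.51) and Dusp6 (-0.47), and the lysosomal enzyme Asah1 gave -0.26. The call of Asah1 against the control was lost without control replicate 1 (adjusted p = 0.0534), clone 2 replicate 1 (0.0761) or clone 2 replicate 2 (0.0566).

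Some genes rose in clone 2 less than in clone 1, namely Dcdc2a (-0.81), the ribosomal protein gene Rpl39l (-0.76), Bmp4 (-0.52), Tnfrsf19 (-0.39) and Selenoi (-0.32). Others fell in clone 2 less than in clone 1, namely Usp26 (1.81), Stra8 (1.20), Lefty1 (0.93), Lamb1 (0.85) and Lefty2 (0.83).

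Clone 2 was higher than clone 1 at A2m (2.87), Vax2 (2.09), Vax2os (1.76), Rerg (1.25), Tpi1 (0.63), Trh (0.60) and the zinc finger gene Zfp422 (0.56) on chromosome 6. Elsewhere it was higher at Slc16a3 (1.97), Upb1 (1.61), Nlrp4c (1.49), Zim2 (1.41), Ccl25 (1.35), Casq2 (1.15), Tgm3 (1.00), Eomes (0.79), Slfn5 (0.75), the ribosomal protein copy Rpl32l (0.59) and Tcl1 (0.54). Against the control, the call of Upb1 was lost without clone 2 replicate 1 (adjusted p = 0.18), that of Zim2 without clone 2 replicate 2 (0.418) and that of Ccl25 without clone 2 replicate 2 (0.181), and each was also lost without at least 1 control library.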

How the results depend on the processing

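The counts depended on single libraries. With 1 of the 6 left out at a time, they ranged from 656 to 1197 rises and 467 to 1105 falls over all genes, from 322 to 769 and 423 to 1011 outside chromosomes 6 and 14, from 326 to 411 and 7 to 14 on chromosome 6, from 8 to 17 and 36 to 80 on chromosome 14, and from 115 to 377 and 155 to 557 between the clones. The shifts ranged from 0.50 to 0.52 on chromosome 6, from -0.14 to -0.11 on chromosome 14 and from -0.21 to -0.19 beyond 40 Mb. List members that fell ranged from 19 to 23 (2-cell-like), 11 to 14 (Oosp, Obox and Pramel), 7 to 11 (germline), 10 to 14 (imprinted), 7 to 11 (mesenchymal), 4 to 7 (p53) and 3 to 7 (ERK), and members that rose from 6 to 12 (glycolysis and hypoxia) and 5 to 31 (histones).

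With chromosomes centred one by one on their medians, chromosome 14 in 2 parts split at 40 Mb, which removes the shifts by construction, 746 genes rose over all, 57 rose and 59 fell on chromosome 6, and 26 rose and 29 fell on chromosome 14. Kdm3a (-0.034), Aebp2 (-0.069), Pdia4 (-0.00019) and Zfp638 (-0.053) then changed sign. DESeq2 gave 9 falls on chromosome 6. With no filter on low counts, 23 genes rose on chromosome 14, 644 were higher in clone 2 than in clone 1, and the shifts were 0.49 on chromosome 6 and -0.13 on chromosome 14. Chromosome 14 was shifted by -0.13 with a filter of 1 CPM in 2 libraries and by -0.13 over genes of at least 10 CPM, and its part beyond 40 Mb by -0.18 over the latter. The cause of these moves was not tested. The 4 libraries alone gave 1179 rises and 1094 falls. Of 205 values from settings other than leaving out 1 library, 190 kept their direction and stayed within 1.5 times the count reported, or within the replicate spread of the shift. The fits without 1 library are not among the 205, and their wider ranges are given above.

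Whether the shared replicate numbers pair the libraries was not settled. Deviations of same-numbered libraries of the control and clone 2 correlated at -0.134, which cannot decide it with 2 libraries per group. With the replicate block 1124 genes rose and 1022 fell. A crossed block on the 4 libraries, chosen after seeing the data, gave 1971 rises and 1932 falls. Of the 178 genes named by rule 171 were called, and the replicate block ended the call of 3 of them, DESeq2 of 6 and the centred fit of 22. In the lowest of 4 expression groups of chromosome 6, 9.55% of genes were called and the median shift was 0.33, against 92.7% and 0.52 in the highest, and the part of depth in this was not tested.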

Other observations

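A few genes were near 0 in clone 2 although each control library held at least 10 reads. They were chosen after their values were seen, by having at most 2 reads in each clone 2 library. Bgn, which codes for the matrix proteoglycan biglycan, had 12 and 14 reads in the control, 4 and 2 in clone 1 and 0 in both clone 2 libraries, and a count of 0 allows up to 3 reads. The signalling ligand Bmp2 had 12 and 14 reads in the control, 0 and 4 in clone 1, and 2 and 0 in clone 2. Gabra5, a receptor subunit for the transmitter GABA, had 10 and 17 reads in the control, 0 in both clone 1 libraries, and 0 and 2 in clone 2. Bglap, an osteocalcin gene next to Bglap3, had 12 and 19 reads in the control, 3 and 4 in clone 1 and 1 in each clone 2 library. Kcnh4, a potassium channel, Klf14, a transcription factor, and Cd209f, a lectin, met the same rule. At these counts no fold change is given.

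The small nucleolar RNA genes AF357355 and DQ267102 within Rian differed most between the libraries of clone 1, which held 2.84 and 21.2 CPM of the first and 1.04 and 37.6 CPM of the second. In clone 2 their libraries held 3.01 and 5.02 CPM, and 5.74 and 10.1 CPM, so for both genes 1 clone 1 library lay under clone 2 and the other above it.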
